A study of Mus musculus with 8 samples.

Results

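The short interspersed elements (SINEs) of the mouse genome were followed by the number of reads counted on each SINE subfamily. The deposited table names every repeat entry by its name, its family and its class, and the members are all entries whose class is SINE. There were 35 of them, among 1153 repeat subfamilies and 25215 entries in all. By family they comprise 16 Alu, 5 B2, 4 B4, 4 ID, 4 MIR and 2 Deu subfamilies. All 35 were counted well enough to be tested. One further entry, MER131, carries the uncertain class "SINE?" and 6 to 23 counts per library, and was not included.

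SINEs are short retrotransposons that encode no protein and are copied by the machinery of LINE elements. Their own promoter is internal and is read by RNA polymerase III. The mouse B1 subfamilies, which the table files under Alu, derive from 7SL RNA, the RNA of the signal recognition particle. B2 and MIR elements derive from tRNA, ID elements are related to BC1 RNA, and B4 elements combine an ID and a B1 part. Many copies also lie in introns and untranslated regions of genes, where RNA polymerase II transcribes them as part of the gene, and a library of polyadenylated RNA holds both kinds. Among B2 elements, B2_Mm1a, B2_Mm1t and B2_Mm2 are the younger subfamilies and B3 and B3A the older ones. B1_Mm, B1_Mus1 and B1_Mus2 are the youngest B1 subfamilies, and MIR and Deu elements are ancient ones shared with other mammals.

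The cells sequenced were immortalized fibroblasts of mouse embryos in which Setdb1, Suv39h1, Suv39h2, Ehmt1, Ehmt2 and Ring1b were knocked out. Libraries were made from polyadenylated RNA, and all 4 groups share these knockouts, so none of them is wild type. The sources used here do not say whether the knockout line is 1 clone. The first 5 genes encode methyltransferases of histone H3 lysine 9, and Ring1b is a ubiquitin ligase of the PRC1 complex. The combined group carried an shRNA against Ring1a, the other PRC1 ubiquitin ligase (gene symbol Ring1), and was grown for 7 days with 1 uM of DS3201, which blocks EZH1 and EZH2, the enzymes that methylate histone H3 lysine 27. The DS3201 group carried the control shRNA and received the same inhibitor. The knockdown group carried the Ring1a shRNA without inhibitor, and the control group the control shRNA without inhibitor. The shRNAs were delivered by lentivirus at a multiplicity of infection of 2, with blasticidin at 7 µg/ml for 3 days as selection. Each group had 2 libraries, and nothing says that they came from separate cultures, so a p-value here reflects the spread between libraries alone, and that spread may be technical.

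The 8 libraries held 12738585 to 23688253 counts, and 1 library of each group belongs to set 20 and 1 to set 28, after the numbers that start the column names. Repeats took 8.59% to 14.6% of all counts, with the highest share in the DS3201 library of set 28. Ring1 was lower in each library with the Ring1a shRNA, at 3.52 and 2.04 CPM (read counts scaled to the TMM-adjusted library size) in the combined group in set 20 and set 28, 20.4 and 7.51 CPM in the DS3201 group, 4.51 and 1.41 CPM in the knockdown group and 20.2 and 9.73 CPM in the control group. Of 12 fibroblast markers 10 averaged above 1 CPM over the libraries. Their summed level was 12360 to 14930 CPM in the libraries with DS3201 and 19060 to 21330 CPM in those without. Col1a1, Col1a2 and Col3a1 were lower with DS3201 within each set and shRNA, but not all markers were. Dcn was at 6.71 to 9.67 CPM with DS3201 and 0 to 0.404 CPM without, and Pdgfra at 8.95 to 28.4 and 0.190 to 7.27 CPM. Vim overlapped, at 1762 to 2861 and 1888 to 2879 CPM. Thy1 and Lum, which also mark fibroblasts, stayed under 1 CPM in every library. Summed markers of blood cells stayed between 4.38 and 13.6 CPM, those of endothelium between 11.1 and 22.6 CPM, those of epithelium between 17.7 and 140.1 CPM, and those of neurons between 15.4 and 112 CPM. Krt14 made up most of the epithelial sum, at 138 and 28.4 CPM in the combined group in set 20 and set 28, 135 and 21.6 CPM in the DS3201 group, 57.6 and 19.6 CPM in the knockdown group and 64.1 and 17.05 CPM in the control group. Of the neuronal markers, Map2 was at 10.4 and 53.5 CPM in the combined group, 11.6 and 91.8 CPM in the DS3201 group, 0.163 and 46.2 CPM in the knockdown group and 0.143 and 45.4 CPM in the control group, and Tubb3 at 13.7 to 51.4 CPM. The blood marker Lyz2 was at 5.27 to 7.91 CPM in the libraries with DS3201 and 0.0475 to 0.269 CPM in those without. Cd68, of the same list, went the other way within each set and shRNA, at 1.53 to 4.36 CPM with DS3201 and 2.49 to 10.2 CPM without. Tek, of the endothelial list, was at 1.85 to 5.21 CPM with DS3201 and 0.143 to 0.604 CPM without. Kdr, of that list, overlapped, at 10.9 to 14.4 CPM with DS3201 and 9.17 to 21.1 CPM without. Krt8, of the epithelial list, went the other way from Krt14 in set 20. There it was at 1.07 CPM in the combined, 1.19 in the DS3201, 3.17 in the knockdown and 3.47 in the control group. In set 28 it was under 1 CPM in every group. Cdh1, Krt18, Cd3e and Rbfox3 were under 1 CPM throughout. In bulk RNA, fewer cells of a type and less RNA per cell cannot be told apart. The part of these markers in the results was not tested.

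SINE entries held 180280 to 269175 counts per library. In set 20 and set 28 they made up 1.28% and 1.32% of all counts in the combined group, 1.17% and 1.47% in the DS3201 group, 1.14% and 1.33% in the knockdown group, and 1.05% and 1.17% in the control group. Of the repeat counts, 10.05% to 11.8% were SINE counts in the libraries with DS3201 and 12.1% to 13.4% in those without. Each entry sums all copies of a subfamily, and the files give no lengths or copy numbers, so levels are compared between libraries and not between subfamilies. The sources used here do not give the rule for reads that align to several copies or the strand setting. Close relatives such as B2_Mm1a and B2_Mm1t share most of their sequence, so the split of reads between them is uncertain. No consensus sequence is printed, because none was among the files used here.

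With DS3201 the young B2 subfamilies B2_Mm1a and B2_Mm1t were higher, with averaged log2 fold changes of 0.82 and 0.67, while those of the other 33 SINE subfamilies lay between 0.00 and 0.30. B2_Mm1a, in set 20 and set 28, was at 402 and 510.2 CPM in the combined group, 309 and 551 CPM in the DS3201 group, 233 and 318 CPM in the knockdown group and 204 and 252.5 CPM in the control group. Within each set and with each shRNA the library with DS3201 was the higher one, although across sets the DS3201 library of set 20 fell just under the knockdown library of set 28. B2_Mm1t was at 359 and 420.5 CPM in the combined group, 305.5 and 504 CPM in the DS3201 group, 237 and 301.5 CPM in the knockdown group and 221 and 239.7 CPM in the control group. All 4 libraries with DS3201 lay above all 4 without it. B2_Mm1t was the only member of the 35 with this separation, which 12.3% of all tested entries showed upwards and 5.28% downwards, so such a count is no result about SINEs.

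**Figure D1:**
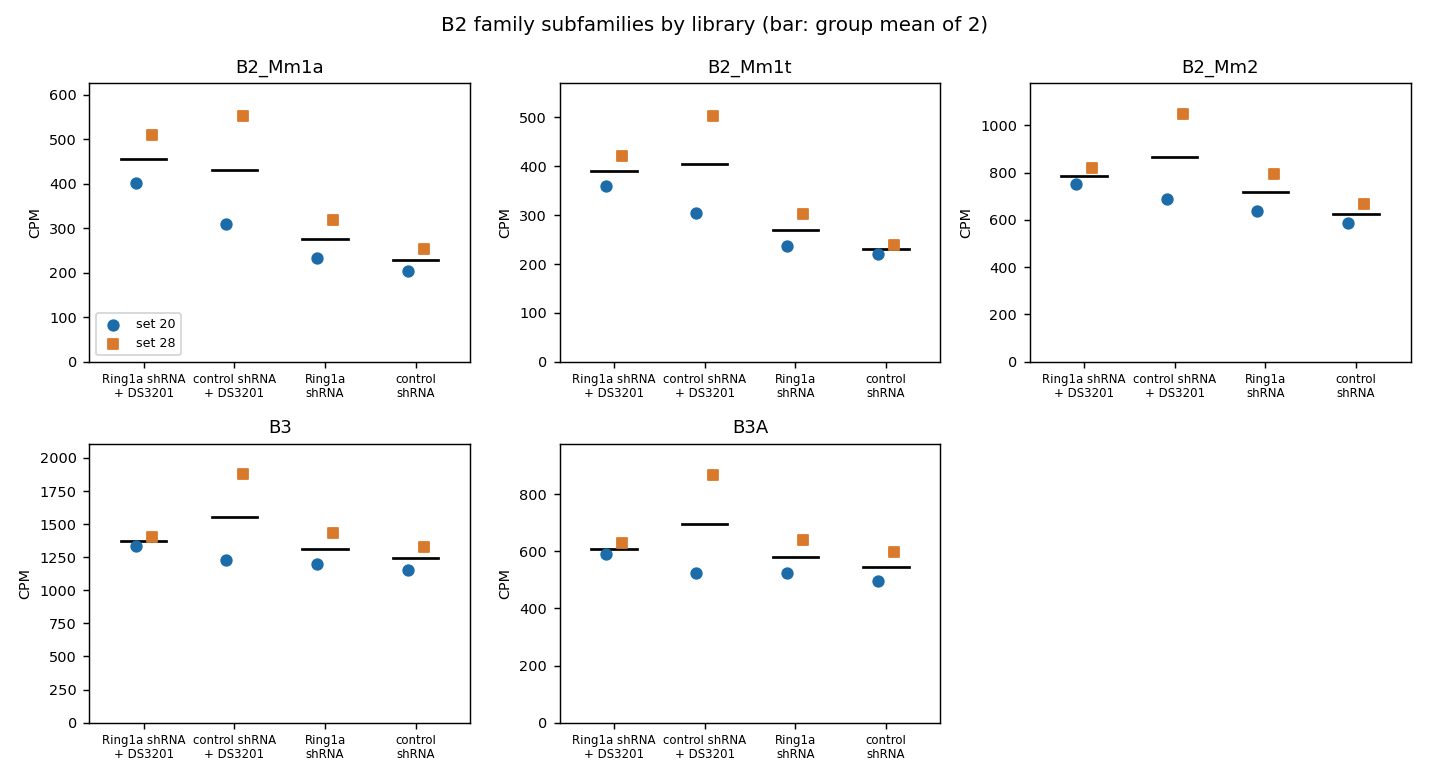
Level of the 5 B2 subfamilies in each library, in CPM on a linear axis from 0, by group. Circles are set 20, squares are set 28 and bars are the mean of the 2 libraries of a group. Within each set and shRNA B2_Mm1a, B2_Mm1t and B2_Mm2 are higher with DS3201 (groups at the left). Across sets, B2_Mm1t alone separates the 4 libraries with DS3201 from the 4 without.

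Averaged over both shRNAs, the log2 fold change with DS3201 was 0.82 ± 0.24 (SE) for B2_Mm1a and 0.67 ± 0.20 for B2_Mm1t, from edgeR's quasi-likelihood test over all 8 libraries. Without a term for the set neither passed the threshold of 0.05 (Benjamini-Hochberg adjusted p = 0.121 and 0.133). In that fit 0 of 35 SINEs passed, beside 5.46% of all tested entries, and 2 had an unadjusted p under 0.05. With the set as a replicate block both rose, by 0.80 ± 0.13 for B2_Mm1a (95% interval 0.51 to 1.10, edgeR adjusted p = 0.0061) and by 0.66 ± 0.13 for B2_Mm1t (0.35 to 0.96, edgeR adjusted p = 0.0149). They were the 2 of 35 SINEs called higher in that fit, in which 12.9% of all tested entries were called higher, and 0 SINEs were called lower, beside 4.16%. Without the DS3201 library of set 20, the fit with the block called 17 SINEs higher, as it called 6597 of the 15287 entries in either direction. DESeq2 without the block also called these 2 members (adjusted p = 0.0167 and 0.0269), in a fit that called 10.5% of all entries. With the block, B2_Mm1a stayed past the threshold when each of the 8 libraries was left out in turn (edgeR adjusted p = 0.00073 to 0.0475). B2_Mm1t did so in 3 of the 8, namely without the control library of set 20 or without either DS3201 library, and was at 0.0574 to 0.0884 without any of the other 5. Over all 25 alternatives the edgeR or DESeq2 adjusted p ran from 0.00073 to 0.317 for B2_Mm1a and from 0.00129 to 0.352 for B2_Mm1t, and the fold change was above 0 in all 25 for each.

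Shares within the family do not depend on how libraries are scaled. B2_Mm1a made up 11.7% and 13.5% of B2 counts in the combined group in set 20 and set 28, 10.1% and 11.4% in the DS3201 group, 8.23% and 9.13% in the knockdown group and 7.65% and 8.20% in the control group. The 4 libraries with DS3201 stood above the 4 without it (11.7% ± 1.39 and 8.30% ± 0.612, SD, n = 4 each), and the order of the 4 groups was the same in both sets. B2_Mm1t made up 10.4% and 11.1% in the combined group, 10.0% and 10.4% in the DS3201 group, 8.38% and 8.66% in the knockdown group and 8.30% and 7.78% in the control group. Here too the libraries with and without DS3201 did not overlap (10.5% ± 0.462 and 8.28% ± 0.364). Counting error is small against these differences, with 95% exact binomial intervals of at most ± 0.276 percentage points for B2_Mm1a and ± 0.257 for B2_Mm1t, which cover counting error only.

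The share of the older members was lower where that of the younger ones was higher, as shares of 1 total must be. B3 made up 38.7% ± 1.25 of B2 counts with DS3201 and 42.5% ± 1.03 without, and B3A 17.2% ± 0.541 and 18.7% ± 0.454, without overlap of the libraries in either case. B2_Mm2, the remaining young member, kept its part, at 21.9% ± 0.408 with DS3201 and 22.3% ± 0.532 without, and the libraries overlapped. The 3 B2_Mm subfamilies together held 44.1% ± 1.57 of B2 counts with DS3201 and 38.8% ± 1.34 without. No test is given for these sums and shares, since the members were chosen with results of these libraries known.

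**Figure D2:**
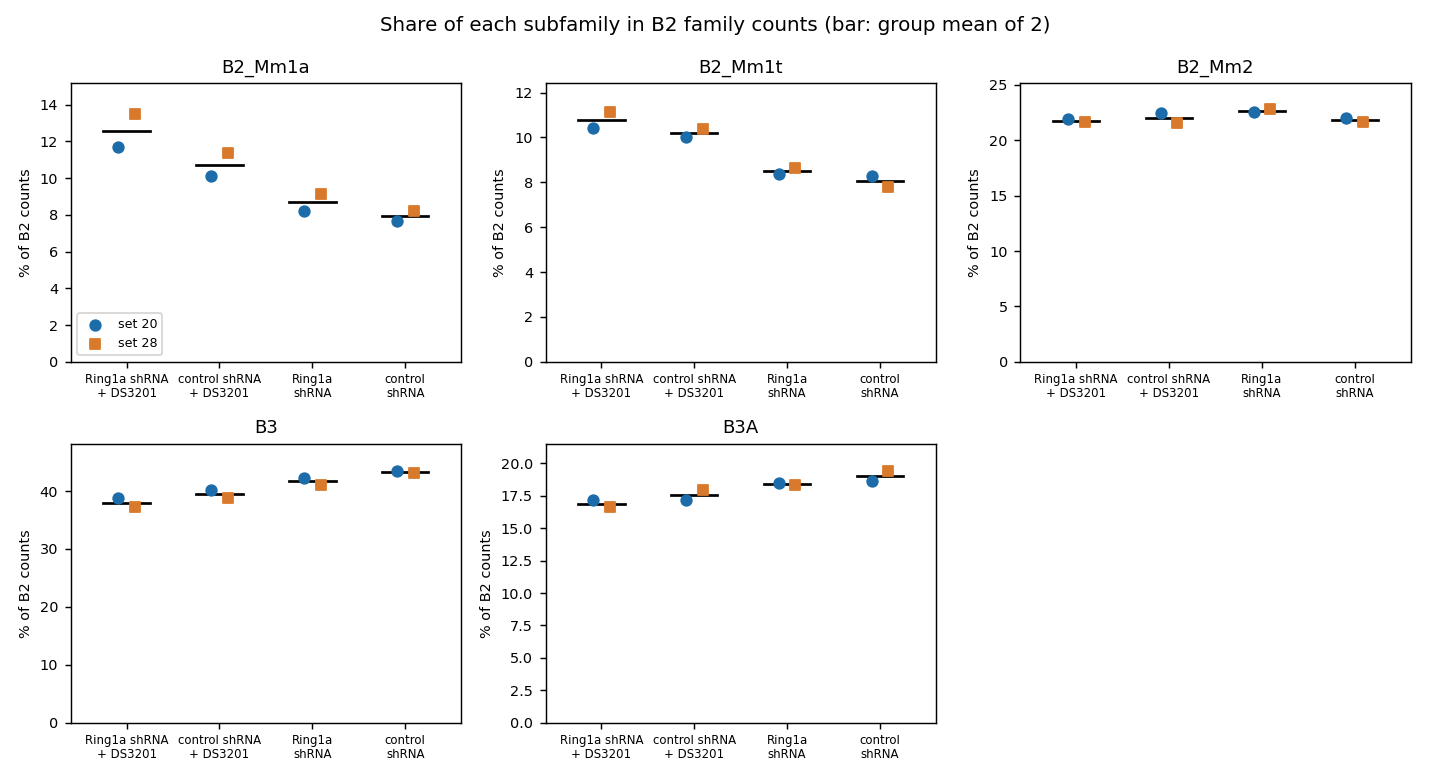
Share of each B2 subfamily in the counts of the B2 family, in percent on an axis from 0, by group. Circles are set 20, squares are set 28 and bars are the mean of the 2 libraries. B2_Mm1a and B2_Mm1t take a larger share in the 4 libraries with DS3201, B3 and B3A a smaller one, and B2_Mm2 does not separate them.

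The other members of the B2 family had smaller fold changes. B2_Mm2 was at 753 and 818.5 CPM in the combined group, 687 and 1047 CPM in the DS3201 group, 639 and 794 CPM in the knockdown group and 588 and 665.5 CPM in the control group. The library with DS3201 was the higher one within each set and with each shRNA, and across sets the combined and knockdown groups overlapped. This one sign in all 4 pairs of libraries was found for 10 of the 35 members. They are B2_Mm1a, B2_Mm1t, B2_Mm2, B1_Mm, B1_Mus1, B1F1, B1F2, PB1D7, MIR and MIRb. How many of all entries showed it was not counted, so this is no result about SINEs. With the Ring1a shRNA, 10 of 35 members were above 0 in both sets, beside 5621 of all 15287 entries. With the control shRNA it was 31 members, beside 5416 entries. The averaged log2 fold change of B2_Mm2 was 0.30 ± 0.19 without the block and 0.29 ± 0.12 with it (edgeR adjusted p = 0.478 and 0.151). B3 was at 1334 and 1406 CPM in the combined group, 1229 and 1876 CPM in the DS3201 group, 1197 and 1430 CPM in the knockdown group and 1157 and 1325 CPM in the control group. Its groups overlapped, as did those of B3A, and the averaged log2 fold changes were 0.19 ± 0.19 for B3 and 0.21 ± 0.20 for B3A.

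In cells with the Ring1a shRNA, the comparison of the combined group with the knockdown group asks what EZH1 and EZH2 inhibition does where Ring1a is also reduced. B2_Mm1a had a log2 fold change of 0.73 ± 0.33 there and B2_Mm1t one of 0.53 ± 0.28 (edgeR adjusted p = 0.598 and 0.731). The same sign was found within both sets, at 0.79 in set 20 and 0.68 in set 28 for B2_Mm1a and at 0.60 and 0.48 for B2_Mm1t. With the block the adjusted p was 0.0554 and 0.154, so neither passed. In edgeR 0 of 35 SINEs were called without the block, beside 0.602% of all entries, and 0 with it, beside 6.05% called higher and 0.824% called lower. At an unadjusted p under 0.05 there were 0 without the block and 2 with it, and DESeq2 called 0, beside 4.3% of all entries. With the block and each library left out in turn, the fold change ran from 0.66 to 0.82 for B2_Mm1a and from 0.47 to 0.62 for B2_Mm1t. B2_Mm2 at 0.13 and B1_Mm at 0.11 followed in size, and the lowest 3 were ID4_ at -0.06, ID4 at -0.04 and PB1 at -0.03, none of them past the threshold.

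In cells with the control shRNA, the comparison of the DS3201 group with the control group, B2_Mm1a had a log2 fold change of 0.91 ± 0.34 and B2_Mm1t one of 0.81 ± 0.29 (edgeR adjusted p = 0.327 and 0.304). Within set 20 and set 28 the values were 0.60 and 1.13 for B2_Mm1a and 0.47 and 1.07 for B2_Mm1t. Without the block edgeR called 0 of 35 SINEs, beside 0.726% of all entries, with 2 at an unadjusted p under 0.05, and DESeq2 called 0, beside 5.22% of all entries. With the block B2_Mm1a rose by 0.87 ± 0.18 (edgeR adjusted p = 0.0324), the 1 SINE called higher, beside 6.62% of all entries called higher and 0.706% called lower, while B2_Mm1t was at 0.78 ± 0.18 (edgeR adjusted p = 0.0509). The call of B2_Mm1a held without either DS3201 library (edgeR adjusted p = 0.00199 and 0.0342) and was lost without any 1 of the other 6 (0.056 to 0.256). Without the DS3201 library of set 20 the fit with the block called 21 SINEs and 5799 of all entries. Over the 26 alternatives for B2_Mm1a the adjusted p ran from 0.00199 to 0.764. FAM at 0.61 ± 0.51 came next, an old Alu-related entry with 15 to 41 counts per library, and the lowest values were those of AmnSINE2 at -0.04, MIR3 at 0.07 and ID4_ at 0.10.

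**Figure D3:**
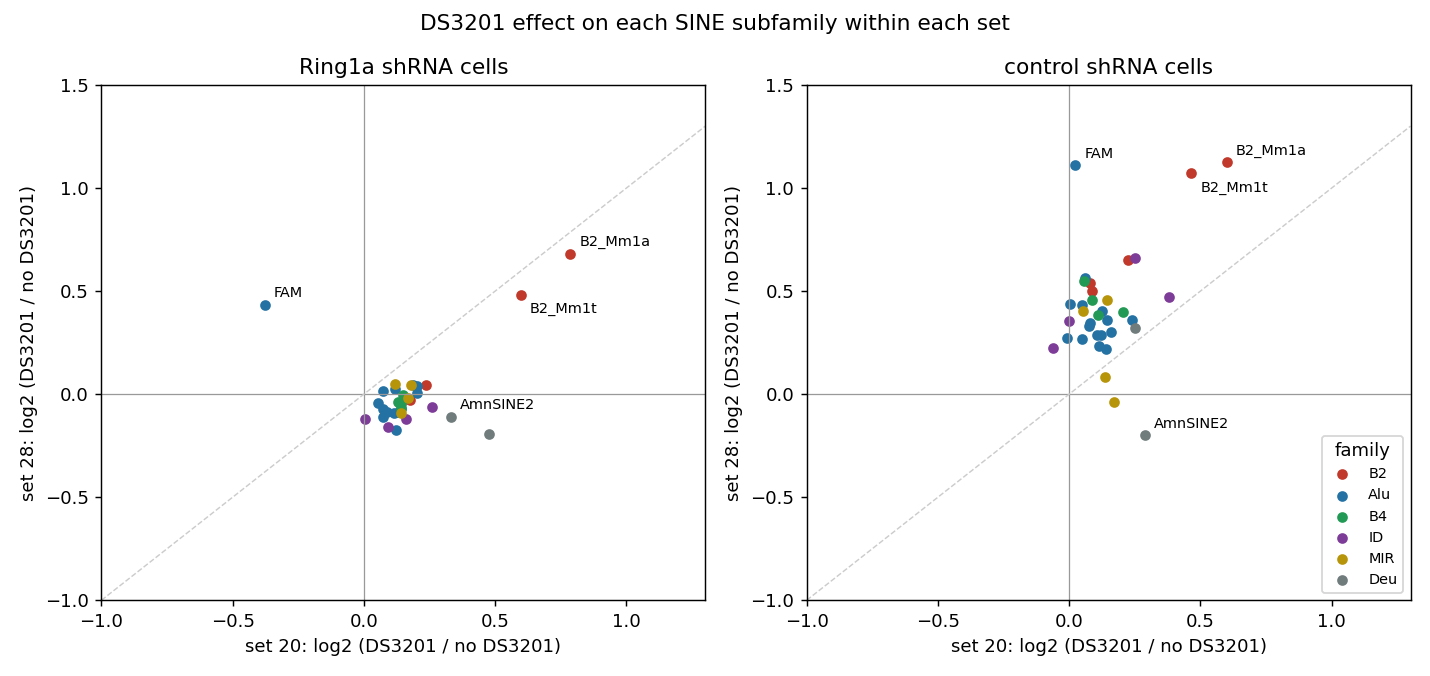
Log2 ratio of DS3201 to no DS3201 for each of the 35 SINE subfamilies in set 20 (horizontal axis) and set 28 (vertical axis), with the Ring1a shRNA on the left and the control shRNA on the right. Points are coloured by family and the dashed line marks equal values. B2_Mm1a and B2_Mm1t stand at the upper right in both panels, and 30 of the remaining 33 subfamilies lie higher in set 28 than in set 20 with the control shRNA (medians over all 35 of 0.38 and 0.11), the exceptions being AmnSINE2, MIR3 and MIRc. With the Ring1a shRNA 1 of these 33 lies higher in set 28, where the median over all 35 is -0.04.

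The Alu family, that is the B1 and proto-B1 subfamilies, showed small differences with DS3201. Averaged over both shRNAs its 16 members had log2 fold changes from 0.08 to 0.30, with a median of 0.12. B1_Mm was at 302 and 337 CPM in the combined group, 261 and 453 CPM in the DS3201 group, 263 and 328 CPM in the knockdown group and 250 and 307 CPM in the control group. Only the DS3201 library of set 28 stood clear of the rest, and the averaged log2 fold change was 0.24 ± 0.21 (edgeR adjusted p = 0.648). B1_Mus1, the Alu subfamily with the most counts, was at 688 and 742 CPM in the combined group, 629.5 and 872.5 CPM in the DS3201 group, 604 and 720.3 CPM in the knockdown group and 569.6 and 679 CPM in the control group. These groups overlapped as well, and its log2 fold change was 0.19 ± 0.17. B1_Mus2, B1_Mur1, B1F and PB1D10 had averaged log2 fold changes of 0.10, 0.10, 0.17 and 0.11, each with overlapping groups.

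Within the Alu family the shares moved by less than a percentage point. B1_Mm, B1_Mus1 and B1_Mus2 together held 31.9% ± 0.183 of Alu counts with DS3201 and 31.3% ± 0.135 without (SD, n = 4 each), and the libraries did not overlap. B1_Mus1 alone held 14.4% ± 0.169 and 13.9% ± 0.170. Over all 35 members the share of the own family separated the libraries with DS3201 from those without in 6, higher in 4 (B2_Mm1a, B2_Mm1t, B1_Mus1 and ID2) and lower in 2 (B3 and B3A). The same count over 883 tested repeat subfamilies in families of at least 2 entries gave 3.74% higher and 9.51% lower, SINEs included.

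In the B4 family RSINE1 was at 826 and 911 CPM in the combined group, 739 and 1271 CPM in the DS3201 group, 748 and 943 CPM in the knockdown group and 709.8 and 868 CPM in the control group. The DS3201 library of set 28 was the highest of all 8 and the control library of set 20 the lowest, and the groups overlapped. ID_B1, a fusion of an ID and a B1 element, was at 931 and 945 CPM in the combined group, 865 and 1194 CPM in the DS3201 group, 850.2 and 971 CPM in the knockdown group and 802 and 917 CPM in the control group. Again the groups overlapped. The averaged log2 fold changes of B4, B4A, ID_B1 and RSINE1 lay between 0.15 and 0.19, and none passed.

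The ID family divided into ID and ID2, at averaged log2 fold changes of 0.27 ± 0.19 and 0.24 ± 0.18, and ID4 and ID4_, at 0.08 ± 0.17 and 0.02 ± 0.17. None passed, and the difference between these subfamilies was not tested. ID4 was at 163 and 165 CPM in the combined group, 147 and 215 CPM in the DS3201 group, 153 and 184 CPM in the knockdown group and 147 and 169 CPM in the control group. Its values without DS3201 covered those of the combined group.

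Of the ancient MIR elements, MIRb was at 323 and 307 CPM in the combined group, 297 and 377 CPM in the DS3201 group, 285 and 298 CPM in the knockdown group and 269 and 275 CPM in the control group. It came close to a separation by DS3201, with 1 library of the DS3201 group just under 1 of the knockdown group, at a log2 fold change of 0.21 ± 0.14 (edgeR adjusted p = 0.499). MIR3 was at 167.5 and 149 CPM in the combined group, 154 and 143 CPM in the DS3201 group, 152 and 159 CPM in the knockdown group and 137 and 147 CPM in the control group. It was the member with the smallest difference among the 4 MIR entries, at 0.05 ± 0.12. MIR and MIRc had averaged log2 fold changes of 0.17 and 0.09. The Deu entries AmnSINE1 and AmnSINE2 had 102 to 139 and 20 to 41 counts per library, and log2 fold changes of 0.20 ± 0.23 and 0.00 ± 0.52, so a change of the size seen for B2_Mm1a was not detectable for AmnSINE2 at this depth without the block.

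**Figure D4:**
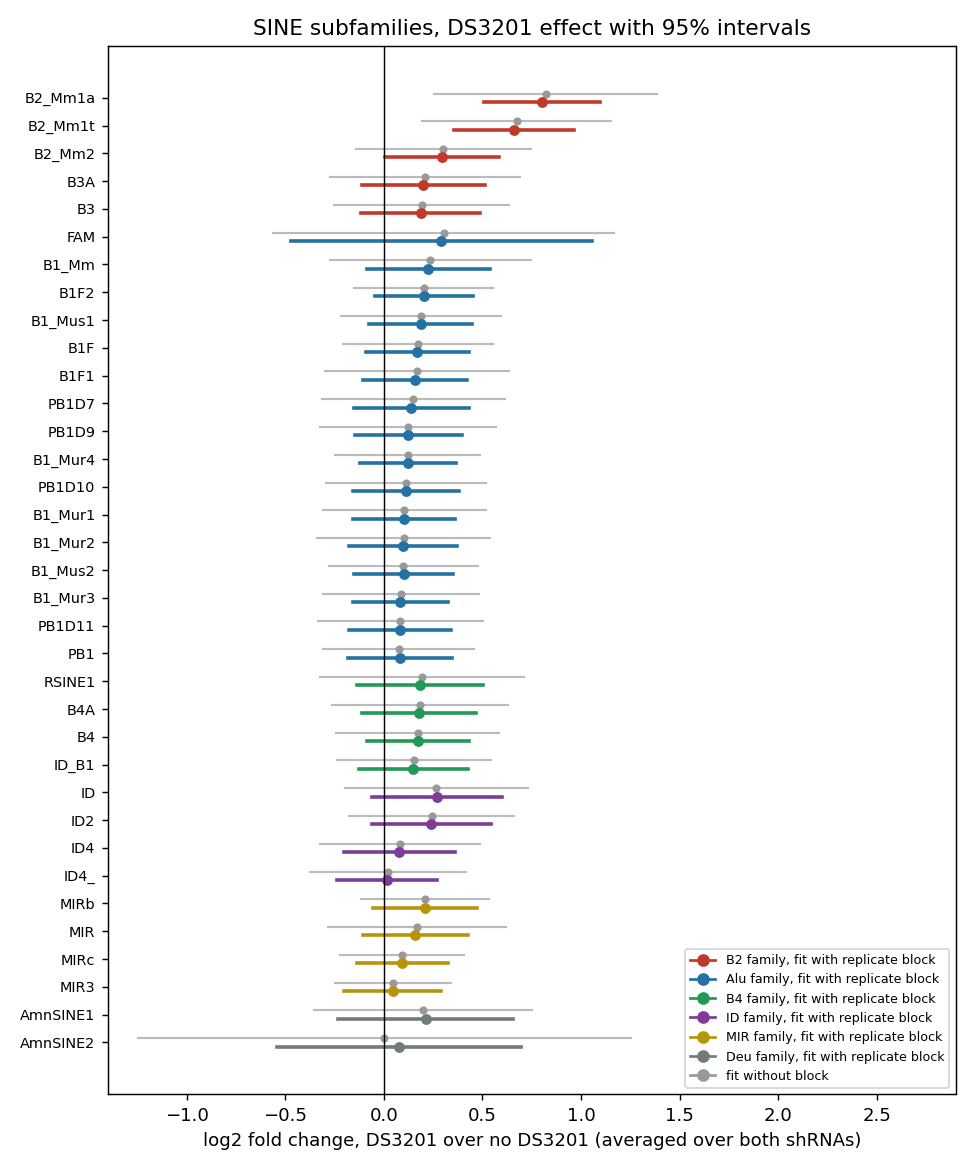
Averaged log2 fold change of DS3201 over no DS3201 for each of the 35 SINE subfamilies, with 95% intervals. Coloured points and lines come from the fit with the replicate block, one colour per family, and grey ones from the fit without it. The intervals of B2_Mm1a and B2_Mm1t lie above 0 in both fits. The lower limit of B2_Mm2 is just above 0 with the block and below 0 without it, and the intervals of the other 32 include 0.

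Leaving aside B2_Mm1a and B2_Mm1t, the averaged log2 fold changes of the other 33 members ran from 0.00 for AmnSINE2 to 0.30 for FAM, and their smallest edgeR adjusted p was 0.478 without the block and 0.151 with it. All 35 values were above 0, beside 8180 of all 15287 entries, and their median was 0.17, beside 0.04 over all tested entries. Under other scalings the SINE median was 0.13 to 0.19, beside 0.01 to 0.06 over all entries, and 33 to 35 members were above 0. That common shift depended on single libraries. Without the DS3201 library of set 28 the SINE median was -0.02, with 14 of 35 above 0, and with the block and without that library it was 0.03, with 26 of 35 above 0. Without the block it was 0.08 without the control library of set 20, 0.07 without the knockdown library of set 20 and 0.28 without the DS3201 library of set 20. With the block and each library left out it ran from 0.03 to 0.24, with 26 to 35 members above 0. With the control shRNA alone the median of 0.27 was -0.07 without the DS3201 library of set 28, 0.09 without the control library of set 20 and 0.48 without the DS3201 library of set 20, and with the Ring1a shRNA the median of 0.04 ran from -0.06 without the knockdown library of set 20 to 0.19 without that of set 28. Without the DS3201 library of set 28, the fold changes of B2_Mm1a and B2_Mm1t were 0.55 and 0.44 without the block. With the block they were 0.64 and 0.49. These fits leave 1 library in the DS3201 group, assumed to vary like the others. Any fit with 1 library left out likewise leaves 1 in its group.

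The DS3201 library of set 28 stood apart in other ways. It had the largest share of repeat counts, and its TMM factor was 0.889 where the other libraries had 0.971 to 1.05. Nuclear-retained RNAs such as Malat1 and Neat1 summed to 1039 CPM in it and to 715 CPM in the combined library of set 28, against 384 to 557 CPM in the other 6. For Malat1 alone the level was 653 CPM in that library and 179 to 375 CPM elsewhere. RNAs that mostly lack a poly(A) tail summed to 711 CPM in that library, the lowest value, and to 868 to 5202 CPM elsewhere. By number of genes this list holds mainly replication histone genes. The part of these differences in the SINE levels was not tested. SINE levels were higher in set 28 than in set 20 in all groups, for 31 of 35 members in the combined group and for 34 of 35 in each of the other 3. The median difference of set 28 minus set 20 was 0.09 on the log2 scale in the combined group, 0.53 in the DS3201 group, 0.28 in the knockdown group and 0.25 in the control group, with medians over all entries from -0.02 to 0.00.

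All SINEs together were at 12320 and 13220 CPM in the combined group, 11200 and 16530 CPM in the DS3201 group, 10930 and 13180 CPM in the knockdown group and 10260 and 12100 CPM in the control group. In each set and with each shRNA the library with DS3201 was higher, by 0.00 to 0.45 on the log2 scale, but the groups overlapped, and the difference of the means was 0.19. Without the DS3201 library of set 28 that difference was 0.08. The B2 sum differed by 0.31 and the sums of the Alu, B4, MIR and ID families by 0.13, 0.16, 0.15 and 0.08. With that library left out the differences were 0.19 for B2, 0.04 for Alu, 0.04 for B4, 0.08 for MIR and -0.03 for ID. The Alu, B4 and ID differences also moved by over 1.5 times without the control library of set 20 (0.07, 0.11 and 0.03). Each was highest without the DS3201 library of set 20, at 0.41 for B2, 0.21 for Alu, 0.24 for B4, 0.20 for MIR and 0.14 for ID, and the ID difference was 0.05 without the knockdown library of set 20 and 0.14 without that of set 28. The log2 ratio of B2 to Alu counts, which needs no scaling, was -0.44 ± 0.07 with DS3201 and -0.62 ± 0.03 without (SD, n = 4 each). It separated the libraries, at -0.51 to -0.35 with DS3201 and -0.66 to -0.60 without, and the difference was 0.15 without the DS3201 library of set 28. The B2 family held 27.3% to 29.3% of SINE counts with DS3201 and 25.5% to 26.4% without.

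**Figure D5:**
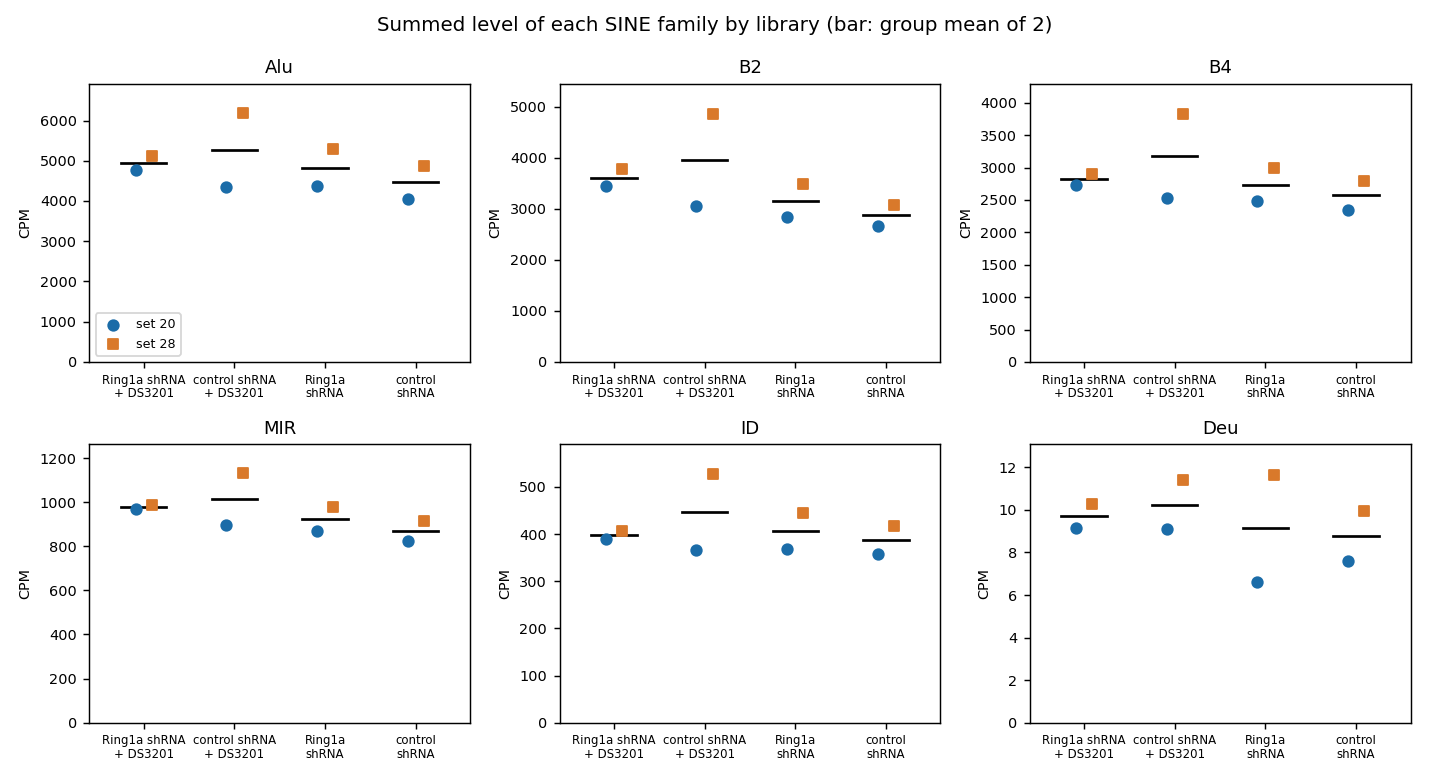
Summed level of each SINE family in each library, in CPM on axes from 0, by group. Circles are set 20, squares are set 28 and bars are the mean of the 2 libraries. The DS3201 library of set 28 is the highest for the Alu, B2, B4, ID and MIR families, and set 28 lies above set 20 in every group for these families.

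The combined group against the control group joins both treatments. B2_Mm1a had a log2 fold change of 1.00 ± 0.34, with 0.98 in set 20 and 1.02 in set 28, and B2_Mm1t one of 0.76 ± 0.28, with 0.70 and 0.81. Without the block edgeR called 0 of 35 SINEs, beside 1.46% of all entries (adjusted p = 0.246 and 0.311 for these members), with 2 at an unadjusted p under 0.05, and DESeq2 called 0, beside 6.83% of all entries. With the block both rose, by 1.00 ± 0.18 and 0.75 ± 0.18 (edgeR adjusted p = 0.0157 and 0.0432), and they were the 2 SINEs called higher, beside 9.21% of all entries called higher and 2.06% called lower. B2_Mm1a kept the call without either knockdown library and without either DS3201 library, and lost it without any 1 of the 4 libraries compared (edgeR adjusted p = 0.093 to 0.137). B2_Mm1t kept it without either DS3201 library and lost it without any 1 of the other 6 (0.0731 to 0.32). Over their 26 alternatives the adjusted p ran from 0.0017 to 0.703 for B2_Mm1a and from 0.00504 to 0.780 for B2_Mm1t. B2_Mm2 followed at 0.33 ± 0.26, and the lowest values were those of FAM at -0.37, AmnSINE2 at -0.09 and ID4_ at -0.06, which did not pass. The SINE median was 0.15, beside 0.02 over all entries, and was 0.03 without the control library of set 20 and 0.28 without that of set 28. This comparison and that of the DS3201 group share the control libraries.

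The Ring1a shRNA alone, the knockdown group against the control group, brought no SINE past the threshold. Ring1, the gene it targets, did not pass either, at 4.51 and 1.41 CPM against 20.2 and 9.73 CPM in the control group. A lack of calls here thus does not show that SINEs were unchanged. edgeR called 0 of 35 with and without the block, as it called 0% of all entries, 0 had an unadjusted p under 0.05, and DESeq2 called 0, beside 1 of all 15287 entries (0.00654%). The log2 fold changes were highest for B2_Mm1a at 0.27 ± 0.33, ID2 at 0.23 and B2_Mm1t at 0.22 ± 0.28, and lowest for FAM at -0.37, AmnSINE2 at -0.14 and ID4_ at 0.00. The median was 0.10, beside 0.01 over all entries. In both sets 29 of 35 members were above 0, beside 5400 of all 15287 entries. Without the control library of set 20 the median was -0.01, with 13 of 35 above 0, without the knockdown library of set 28 it was -0.04, without that of set 20 it was 0.22 and without the control library of set 28 it was 0.24. With the block and each library left out it ran from 0.07 to 0.12. Over all 4 libraries with the Ring1a shRNA and all 4 with the control shRNA, 0 of 35 members separated them, beside 0.863% of all entries higher and 1.7% lower without overlap.

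With DS3201 present, the combined group against the DS3201 group, 0 of 35 were called by edgeR with or without the block, beside 0% of all entries, and 0 by DESeq2, beside 5 entries (0.0327%), and 0 had an unadjusted p under 0.05. MIRc at 0.15, MIR3 at 0.09 and B2_Mm1a at 0.08 ± 0.33 were highest, and FAM at -0.98 ± 0.52, ID2 at -0.24 and ID at -0.22 lowest. The median was -0.12, at 0.12 in set 20 and -0.32 in set 28, so the sets had opposite signs. Under scaling by total counts it was -0.02. Without the DS3201 library of set 28 it was 0.21, without that of set 20 it was -0.37, without the combined library of set 20 it was -0.02, and without the control or the knockdown library of set 20 it was -0.07. In shares of B2 counts, B2_Mm1a was higher in the combined than in the DS3201 library of both sets, by the values given above.

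The interaction, that is whether DS3201 acts differently with the Ring1a shRNA than with the control shRNA, passed for 0 of 35 SINEs in edgeR with or without the block and in DESeq2, beside 0% of all entries, with 0 at an unadjusted p under 0.05. B2_Mm1a was at -0.19 ± 0.47 and B2_Mm1t at -0.28 ± 0.40 on the log2 scale. Intervals of this width do not show that the effects are alike. The lowest values were those of FAM at -0.62, ID2 at -0.47 and ID at -0.34, and the highest those of AmnSINE2 at 0.09, MIRc at -0.04 and MIR3 at -0.04. The median of -0.22 was 0.03 in set 20 and -0.42 in set 28, and it was 0.10 without the DS3201 library of set 28, -0.45 without that of set 20, -0.05 and -0.35 without the control library of set 20 and of set 28, -0.12 without the combined library of set 20 and -0.09 without the knockdown library of set 28.

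Other repeat classes had larger medians with DS3201 than SINEs. Averaged over both shRNAs the median log2 fold change was 0.41 for 553 LTR, 0.45 for 143 LINE and 0.26 for 143 DNA transposon subfamilies, beside 0.17 for the 35 SINEs. edgeR with the block called 75 LTR, 6 LINE and 5 DNA subfamilies higher and none of these lower. That is 13.6% of the LTR, 4.20% of the LINE and 3.5% of the DNA subfamilies, beside 12.9% of all tested entries called higher. The 2 SINEs called higher were 5.71% of the 35. The share was thus near the background for LTR and below it for LINE, DNA and SINE subfamilies. B2_Mm1a and B2_Mm1t, the 2 highest SINEs at 0.82 and 0.67 in the fit of the medians, lay above the LTR and LINE medians. The other 33 SINEs lay between 0.00 and 0.30. The highest single values of the other classes were larger, at 4.46 for LTR, 2.34 for LINE and 2.81 for DNA subfamilies.

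RNA of genes for the RNA polymerase III machinery as a whole did not pass in any comparison. Of 28 genes for RNA polymerase III, its initiation factors and their regulator Maf1, edgeR called 0 with and without the block and DESeq2 called 0. At an unadjusted p under 0.05 there were 0 to 1 per comparison without the block and 0 to 3 with it, and the median log2 fold change with DS3201 averaged over both shRNAs was 0.00. Of 20 genes whose products bind, edit or sense SINE and other double-stranded RNA, edgeR called 0 without the block, with 0 to 3 per comparison at an unadjusted p under 0.05, and DESeq2 called 2 averaged over both shRNAs and 1 in the combined group, in fits that called 10.5% and 6.83% of all entries. With the block edgeR called 5 as lower with DS3201 averaged over both shRNAs and 2 as lower with DS3201 in Ring1a shRNA cells. It called 4 as lower in the combined group against the control group. Those fits called 4.16%, 0.824% and 2.06% of all entries lower. Ddx58, which encodes the RNA sensor RIG-I, was at 82.6 and 48.04 CPM in the combined group, 139.7 and 74.5 CPM in the DS3201 group, 155 and 154 CPM in the knockdown group and 178 and 144 CPM in the control group. It fell by 0.97 ± 0.17 with DS3201 averaged over both shRNAs with the block (edgeR adjusted p = 0.0094, and 0.124 without it). Oas3, an oligoadenylate synthetase that responds to double-stranded RNA, differed strongly between the sets, at 26.0 and 1.53 CPM in the combined group, 46.8 and 2.39 CPM in the DS3201 group, 65.3 and 19.2 CPM in the knockdown group and 84.7 and 18.2 CPM in the control group. It fell by 1.98 ± 0.43 with the block (edgeR adjusted p = 0.0224, and 0.625 without it). Eif2ak2, the kinase PKR, fell by 0.90 ± 0.17 with DS3201 in Ring1a shRNA cells with the block (edgeR adjusted p = 0.0257, and 0.739 without it). Mavs and Oas2, with DS3201 averaged over both shRNAs, and Ifih1, in the combined group, were the other members called lower with the block.

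Of 27 listed names for chromatin proteins tied to SINE silencing, 26 were among the counted entries, and all 26 were tested. They include the genes knocked out in all groups (Ring1b under its symbol Rnf2). RNA of these was still counted, with Setdb1 at 4.33 to 13.1 CPM and Ehmt2 at 98.9 to 217 CPM. Dnmt3b, a de novo DNA methyltransferase, was at 13.7 and 10.5 CPM in the combined group, 11.4 and 7.33 CPM in the DS3201 group, 5.69 and 4.17 CPM in the knockdown group and 2.66 and 2.01 CPM in the control group. All libraries with DS3201 were above all without it. It rose by 1.64 ± 0.27 averaged over both shRNAs (edgeR adjusted p = 0.0221, and 0.00148 with the block) and by 2.36 ± 0.39 in the combined group (0.048 and 0.00289). Ezh2, a target of the inhibitor, was at 89.6 and 108 CPM in the combined group, 80.9 and 155.5 CPM in the DS3201 group, 60.4 and 90.4 CPM in the knockdown group and 59.6 and 89.9 CPM in the control group. It rose by 0.52 ± 0.13 averaged over both shRNAs with the block (edgeR adjusted p = 0.0356, and 0.398 without it). Ring1 fell in the combined group with the block, by 2.39 ± 0.30 (edgeR adjusted p = 0.0047, and 0.211 without it), and it is the gene the shRNA targets. The remaining members passed in neither fit in any comparison.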

How the data were processed

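The deposited values are raw counts for genes and repeat subfamilies, which the authors did not normalize. Per the submitters' processing notes, Trim Galore was used for trimming and TopHat2 for alignment, with mm10 as the genome. Not given in the sources used here are their versions, the counting tool, its treatment of multiply aligned reads and the annotation of repeats. Columns were matched to groups by name, and 8 further columns matched no labelled sample and were not used.

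edgeR 4.0.16 in R 4.3.3 was run on 15287 of 25215 entries after filterByExpr, with TMM scaling, 1 term per group over all 8 libraries, the robust quasi-likelihood F test (two-sided) and Benjamini-Hochberg adjustment over all entries tested. Standard errors are model-based, log2 values within a set used a prior count of 2, and the scripts were tested on simulated data. With 4 residual degrees of freedom (3 with the block), precision is limited by the number of libraries. At these depths 3 counts correspond to 0.127 to 0.236 CPM. Batches in the labels carry the replicate numbers, but which number is set 20 or set 28 is not given. Set 20 minus set 28 correlated between groups across entries with r of 0.559 to 0.897, so the set served as the replicate block.

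Named subfamilies were those called, the 3 highest and 3 lowest fold changes per comparison, and a list of well-known ones, and other genes came from 3 lists. The members and lists were chosen with earlier results of these data known. DESeq2 1.42.0, other scalings, no filter, fits of the compared libraries alone, the block and leaving out each library were alternatives. Sums, ratios and shares are described without a test.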

Additional observations from a re-analysis of the deposited data

How the results depend on the processing

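The counts of called SINEs depended on the replicate block and on single libraries. The fits without the block called 0 SINEs in every comparison, except that DS3201 averaged over both shRNAs gave 2 in DESeq2 and 0 to 2 with each library left out. With the replicate block the counts were 1 for DS3201 with the control shRNA, 2 for DS3201 averaged and 2 for the combined group. With the block and each library left out they ran from 0 to 21 for DS3201 with the control shRNA, from 0 to 2 with the Ring1a shRNA, from 1 to 17 averaged, from 0 to 2 for the combined group and from 0 to 1 for the Ring1a shRNA with DS3201. The 21 and the 17 were found without the DS3201 library of set 20, which leaves that of set 28 alone in its group, assumed to vary like the others. With the block and scaling from genes alone or by total counts, DS3201 with the control shRNA gave 2, and by total counts DS3201 with the Ring1a shRNA gave 1. Combinations of the block with another choice were added after seeing the data. The cause of these differences was not tested. The block changed no other SINE call. With 1 library left out, the sums, ratios and shares moved by less than the spread between libraries. Leaving out 1 of 4 libraries cannot move a mean further than that, so this does not show them to be stable. Without the DS3201 library of set 28 the difference with DS3201 in the ID sum went from 0.08 to -0.03. Those of the Alu and B4 sums went from 0.13 and 0.16 to 0.04 each. Single fold changes of members changed sign and moved by more than their SE in 60 cases with 1 library left out and no block, nearly all of them without the DS3201 library of set 28. FAM, AmnSINE1 and AmnSINE2, with few counts, limit what can be detected at this depth.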
